A study of Mus musculus with 20 samples.

Results

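Chromatin at 39 interferon-stimulated genes was followed in lineage-negative (Lin-) bone marrow cells, the fraction of marrow that holds stem and progenitor cells. The genes were chosen by name as a known response module, and 38 of them belong to the 21938 protein-coding genes of the GENCODE M21 annotation used for comparison. The other member, *Mx2*, is annotated there as a polymorphic pseudogene. For each gene, peaks were taken from the gene body extended by 10000 bp on each side. A promoter peak overlapped the 1000 bp on either side of the annotated gene start. A distal peak lay in the window and outside 1000 bp of every annotated transcript start. The windows of 13 members overlap (*Ifit2*, *Ifit3*, and *Ifit3b*; *Oas2* and *Oas3*; *Oasl1* and *Oasl2*; *Rsad2* and *Cmpk2*; *Ifitm1* and *Ifitm2*; *Parp9* and *Dtx3l*), so the genes are not 39 independent observations.

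Type I interferons are secreted when a cell detects viral nucleic acid. They bind a surface receptor whose kinases phosphorylate STAT2, which joins IRF9 in a complex that binds the interferon-stimulated response element, a repeat of GAAA spaced by a pair of bases, in front of the responding genes. Interferon is also known to push quiescent blood stem cells into cycle, and stem cells keep part of the response switched on without infection. Among the marks measured here, H3K4me3 is found at gene starts, H3K27ac at active starts and enhancers, and H3K4me1 at enhancers whether or not they are active. *Ep300* encodes p300, an acetyltransferase that places H3K27ac. *Tet2* encodes an enzyme that oxidizes 5-methylcytosine.

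The study asked how the loss of p300 reshapes the epigenome of *Tet2*-null progenitors. WT mice carried floxed *Ep300* alleles without Cre, Ep300Δ/Δ mice carried *Mx1-Cre* and floxed *Ep300*, Tet2-/- mice carried floxed *Ep300* and no *Tet2*, and Ep300Δ/ΔTet2-/- mice combined *Mx1-Cre*, floxed *Ep300*, and the loss of *Tet2*. The labels call the last 3 p300 Knockout, Tet2 Knockout, and p300 Tet2 Knockout. All 4 genotypes, the controls included, were injected with poly(I:C) as young adults, per the methods. Poly(I:C) mimics viral double-stranded RNA and induces interferon, so no group here is free of a past interferon stimulus. In *Mx1-Cre* mice the promoter of *Mx1*, itself a member, drives Cre, and reads from that copy and from the endogenous promoter cannot be told apart. Per the methods, cells were taken 2 weeks after the injections or at other stated times, and which of these holds for the libraries, and whether animals were pooled, is not given in the sources used here.

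Each genotype gave 1 library per mark. No difference between genotypes below therefore has a replicate error or a test. A call is given beside the share of all protein-coding genes with the same call, and intervals are exact 95% intervals that cover counting error only. The lists hold 18327 to 29659 H3K27ac peaks, 90738 to 107392 H3K4me1 peaks, and 25012 to 27807 H3K4me3 peaks. Read depth is not given in the sources used here, and the double-deficient H3K27ac list is the shortest of its mark. Of 8 stem and progenitor genes, 7 had promoter H3K27ac in each list. *Gata2* had none in either *Ep300*-deleted list, *Cd34* had none in the lists with *Ep300* intact, and the other 6 (*Kit*, *Flt3*, *Myb*, *Mpo*, *Runx1*, and *Ptprc*) had it in all 4. Of the genes of the depleted lineages reported here, *Itgam* had promoter H3K27ac in WT and Ep300Δ/Δ and the other 7 had none in any list. None of 5 genes of other tissues had it. Whether the *Itgam* difference bears on any member was not tested.

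RefSeq promoter sequences of GRCm38.p6, 250 bases before to 50 after the start, were at hand for 30 of the 39 members. The 9 without an entry were *Parp14*, *Rtp4*, *Usp18*, *Mx2*, *Dhx58*, *Oas2*, *Mx1*, *Zbp1*, and *Parp9*. The core of the response element was searched as GAAA, any 2 bases, and GAAA again (the GAAA repeat) on both strands, where matches may overlap. Of the 30 promoters, 16 held a match (53.3%, interval 34.3 to 71.7), against 3.47% of 16522 gene promoters of the same length. The same repeat followed by CT was found in 9 of 30, against 0.351%. The 160 bases before the start are shown for 7 genes, with every match of the GAAA repeat, read on either strand, in capitals. *Isg15* and *Bst2* stand for promoters acetylated in all genotypes, *Ifit1*, *Oas1a*, and *Oas3* for promoters acetylated in some, and the near-identical *Ifit3* and *Ifit3b* for a copy problem described with their results. Both of the latter hold 2 matches, but 1 match of *Ifit3b*, at −188 to −179 from its start, lies outside the bases shown.
Isg15 (chr4:156200819-156200978, minus strand): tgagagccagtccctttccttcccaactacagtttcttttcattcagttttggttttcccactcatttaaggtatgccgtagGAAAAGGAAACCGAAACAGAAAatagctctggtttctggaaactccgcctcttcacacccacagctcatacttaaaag
Bst2 (chr8:71537473-71537632, minus strand): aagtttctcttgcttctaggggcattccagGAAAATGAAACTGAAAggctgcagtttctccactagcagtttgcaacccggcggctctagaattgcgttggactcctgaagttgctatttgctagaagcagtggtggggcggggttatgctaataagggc
Ifit1 (chr19:34640729-34640888, plus strand): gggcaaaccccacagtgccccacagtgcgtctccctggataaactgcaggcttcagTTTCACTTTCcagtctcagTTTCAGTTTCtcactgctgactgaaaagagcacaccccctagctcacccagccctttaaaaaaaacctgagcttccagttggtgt
Oas1a (chr5:120907526-120907685, minus strand): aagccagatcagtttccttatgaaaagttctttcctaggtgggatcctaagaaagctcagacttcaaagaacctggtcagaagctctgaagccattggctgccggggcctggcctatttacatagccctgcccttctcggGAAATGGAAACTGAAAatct
Oas3 (chr5:120777660-120777819, minus strand): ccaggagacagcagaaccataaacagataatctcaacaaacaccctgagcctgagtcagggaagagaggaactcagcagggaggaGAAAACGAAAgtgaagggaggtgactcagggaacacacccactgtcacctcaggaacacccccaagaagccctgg
Ifit3 (chr19:34583369-34583528, plus strand): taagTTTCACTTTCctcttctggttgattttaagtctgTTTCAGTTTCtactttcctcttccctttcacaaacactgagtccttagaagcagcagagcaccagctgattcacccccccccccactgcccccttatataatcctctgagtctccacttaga
Ifit3b (chr19:34607797-34607956, plus strand): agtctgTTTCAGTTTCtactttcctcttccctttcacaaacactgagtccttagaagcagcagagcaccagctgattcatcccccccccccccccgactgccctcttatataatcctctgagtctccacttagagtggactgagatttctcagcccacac

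Most members carried marked promoters in every genotype. H3K4me3 was present at 33 of 39 promoters in all 4 lists (84.6%, against 55.0% of protein-coding genes) and H3K27ac at 26 of 39 (66.7%, against 35.5%). With −log10 q of at least 5, *Isg15*, *Rsad2*, *Dhx58*, *Xaf1*, and *Cmpk2* were no longer among the latter, and 21 remained (32.1% of protein-coding genes). Promoter H3K27ac was found at 30 members in WT (76.9%, interval 60.7 to 88.9; 42.1% of protein-coding genes), 27 in Ep300Δ/Δ (69.2%; 40.2%), 29 in Tet2-/- (74.4%; 41.1%), and 31 in Ep300Δ/ΔTet2-/- cells (79.5%; 38.3%). The WT and double-deficient counts differed by 1 gene. With the lists cut to equal length by −log10 q, the counts were 22, 27, 25, and 31. At that setting 8288, 8346, 8563, and 8410 of the 21938 protein-coding genes had a call. The order of the genotypes among the members thus depends on list length. H3K4me1 was missing from every list at 3 members (*Ifit3*, *Ifi44*, and *Samd9l*; 40.9% of protein-coding genes), and H3K4me3 at *Rtp4* alone (40.4%) and from 1 to 3 lists at 5 members (4.57%). Promoter H3K4me1 was present in all 4 lists at 28 members (36.1%) and in 1 to 3 at 8 (23.0%). By genotype, it was found at 32, 33, 31, and 32 members (48.5, 49.4, 46.6, and 49.2% of protein-coding genes), and H3K4me3 at 34, 36, 37, and 37 (56.7, 57.8, 57.1, and 57.4%).

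**Figure D1:**
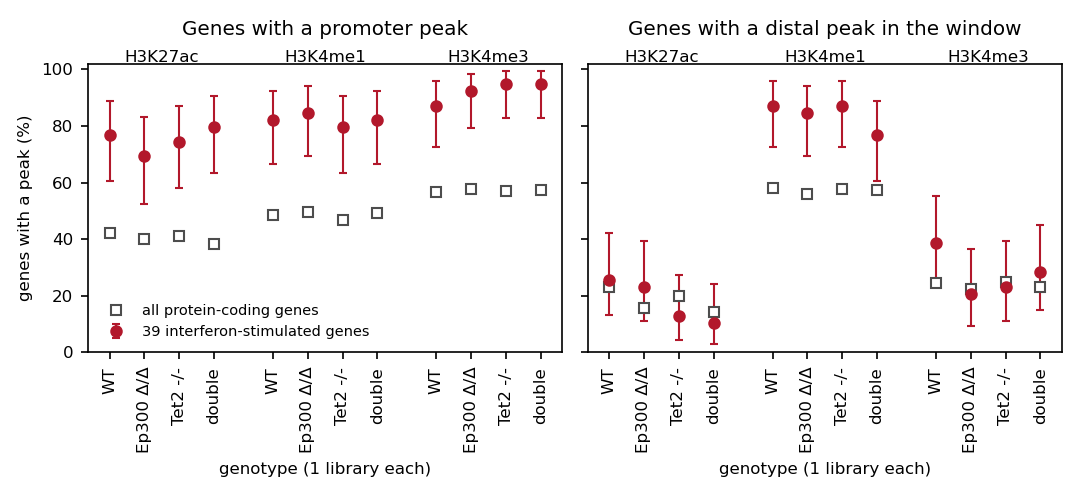
Share of genes (%) with a promoter peak (left) or a distal peak in the window (right) in each of the 12 lists. Filled circles are the 39 interferon-stimulated genes with exact 95% intervals and open squares all protein-coding genes: the promoter intervals of the members lie above the squares for every list, and the distal H3K27ac intervals contain them.

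The members with promoter H3K27ac stood low among acetylated promoters. To compare peaks across lists, the fold over H3 of each promoter peak was ranked among the promoter peaks of protein-coding genes in the same list, so that a rank of 50 is the middle promoter. The median H3K27ac rank of the members with a peak was 26.2 in WT (n = 30), 33.3 in Ep300Δ/Δ (n = 27), 43.3 in Tet2-/- (n = 29), and 26.8 in Ep300Δ/ΔTet2-/- cells (n = 31). Only 6, 9, 12, and 9 of them ranked above 50. The median H3K4me3 rank lay between 27.2 and 34.4. H3K4me1 showed the opposite, with medians of 62.5, 66.9, 65.2, and 67.4. The summits of H3K27ac and of H3K4me3 at members lay at a median of 154 to 168.5 bp and 147.5 to 177.5 bp after the start.

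**Figure D2:**
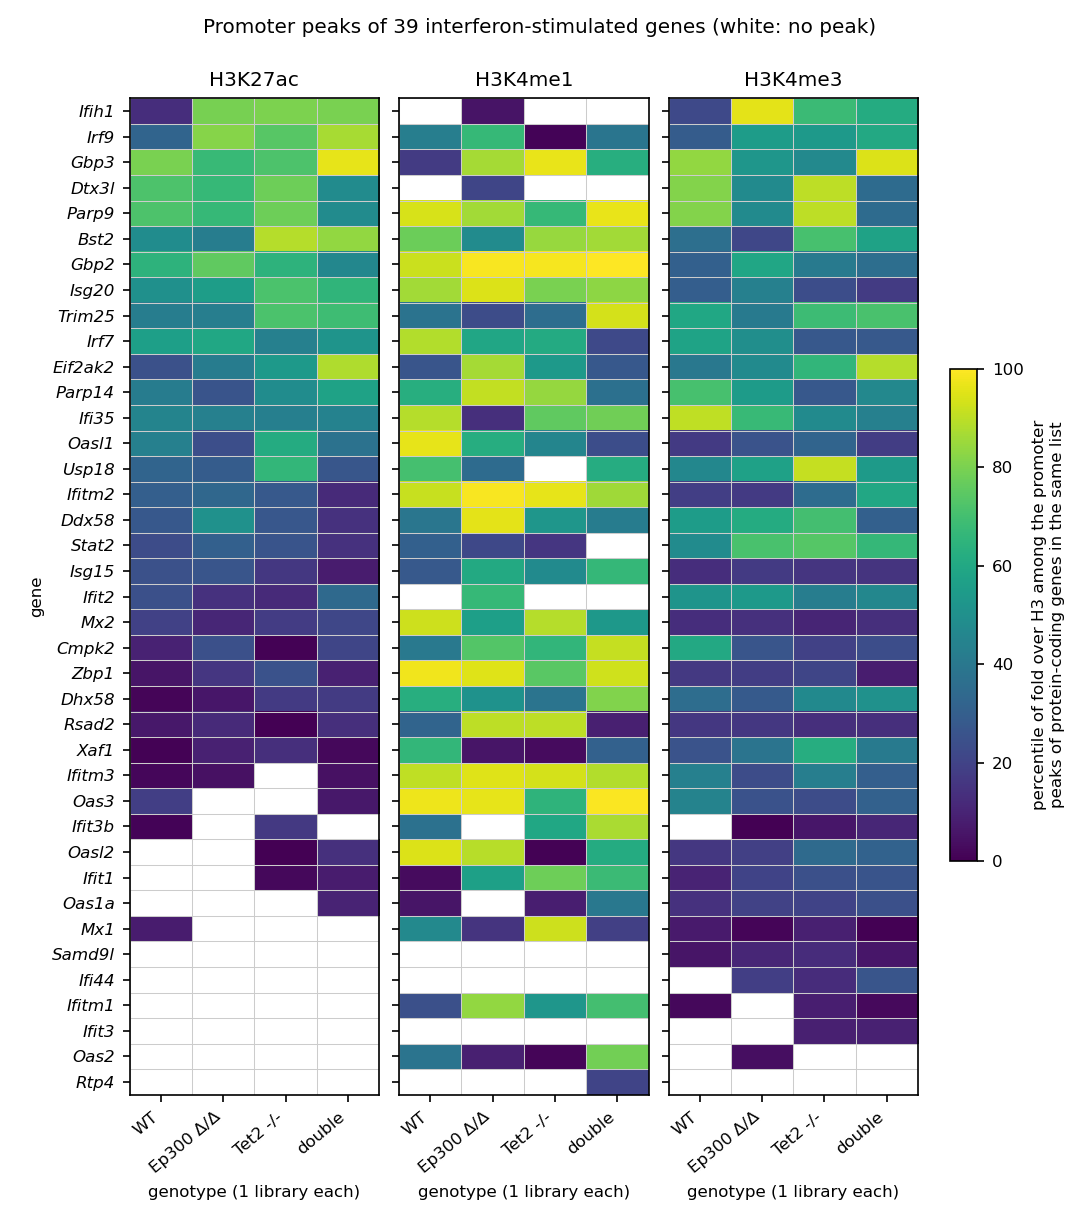
Promoter peaks of the 39 genes (rows, ordered by H3K27ac) in the 4 genotypes (columns) for H3K27ac, H3K4me1, and H3K4me3. Color gives the rank of the peak among the promoter peaks of protein-coding genes in its list (0 to 100) and white means no peak: 26 rows are filled throughout for H3K27ac, and the 6 rows at the foot have none.

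The factors that carry the interferon signal had marked promoters in every genotype. *Stat2*, *Irf9*, and *Irf7* (which amplifies interferon production) each had H3K27ac and H3K4me3 in all 4 lists. *Irf7* (chr7:141262706-141266481, minus strand) had an H3K27ac fold over H3 of 15.1 in WT, 11.8 in Ep300Δ/Δ, 10.5 in Tet2-/-, and 10.8 in Ep300Δ/ΔTet2-/- cells, which are ranks of 56.6, 59.5, 43.6, and 51.7. Its rank stayed near the middle of each list. *Stat2* (chr10:128270559-128292849) had folds of 7.67, 6.94, 7.34, and 5.28, and its ranks of 23.2, 30.6, 25.8, and 14.3 were all in the lower part of the lists. *Irf9* (chr14:55603571-55610030) ranked 32.2 in WT and 82.0, 74.0, and 86.8 in the 3 mutant lists. From WT to Ep300Δ/Δ, 0.352% of the 8517 protein-coding promoters with a peak in both lists moved up at least as far. The H3K4me3 rank of *Irf9* was 29.2 in WT and 55.2, 54.1, and 60.2 in the mutants.

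All 5 sensors of nucleic acid had promoter H3K27ac and H3K4me3 in every full list, against 35.5 and 55.0% of protein-coding genes, and 3 of them had H3K27ac in every list of equal length (not *Dhx58* and *Zbp1*). They were *Ddx58* and *Ifih1* (which detect viral RNA in the cytosol), *Dhx58* (which tunes both), *Eif2ak2* (the RNA-activated kinase PKR), and *Zbp1* (a sensor of Z-form nucleic acid). *Ifih1* (chr2:62595798-62646255, minus strand) showed the widest gap between WT and the mutants, and was singled out after its values were seen. Its H3K27ac fold was 5.92 in WT, 17.6 in Ep300Δ/Δ, 21.5 in Tet2-/-, and 19.4 in Ep300Δ/ΔTet2-/- cells, with ranks of 13.2, 79.5, 80.4, and 79.7. Its H3K4me3 folds were 23.9, 70.5, 37.5, and 30.8. Only 0.0235% of protein-coding promoters moved up as far in H3K27ac from WT to Ep300Δ/Δ, and 0.0925% from WT to Tet2-/-. Both comparisons share the WT libraries, and the folds of both marks share the WT H3 library, whose part in the gap was not tested. *Eif2ak2* ranked 24.9, 42.0, 53.8, and 88.1. *Ddx58* ranked 27.5, 50.6, 27.2, and 14.3, the lowest in the double-deficient list.

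The 4 genes grouped as ISG15 and ubiquitin also had promoter H3K27ac and H3K4me3 in every full list (35.5 and 55.0% of protein-coding genes). *Isg15* no longer had H3K27ac in every list with −log10 q of at least 5. H3K4me1 was constant at 2 of the 4 (36.1%) and missing from some lists at *Usp18* and *Dtx3l*. *Isg15* (chr4:156199424-156200818, minus strand) encodes a ubiquitin-like protein, and its promoter carries the 3 overlapping matches shown above. Its H3K27ac folds were 7.97, 6.39, 5.9, and 4.37, and its ranks of 24.8, 26.3, 16.3, and 7.5 were in the lower part of every list. *Usp18*, which removes ISG15 and restrains the receptor, ranked 32.4, 29.1, 66.2, and 26.8. *Trim25*, a ubiquitin ligase that activates the RIG-I sensor, ranked 42.3, 42.8, 71.7, and 68.8. *Dtx3l*, also a ubiquitin ligase, shares its start region and its H3K27ac peak with *Parp9*, which lies head to head with it. That peak ranked 72.0, 67.0, 78.1, and 48.4.

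The IFIT, OAS, and Mx families, effectors that bind viral RNA, signal its presence, or trap viral particles, held most of the promoters without constant acetylation. Promoter H3K27ac was missing from at least 1 list at 8 of their 11 members, against 5 of the 28 other members and 64.5% of protein-coding genes. The share of these families was thus near the background, and the other members had the lower one. This grouping was made with the values known and was not tested. H3K4me3 was missing from at least 1 list at 3 of the 11 and 3 of the 28 (45.0% of protein-coding genes). Across all members, 7 promoters (17.9%, against 9.35% of protein-coding genes) had H3K27ac in 1 to 3 lists, namely *Ifit1*, *Ifit3b*, *Mx1*, *Oas1a*, *Oas3*, *Oasl2*, and *Ifitm3*. A further 6 had none in any list (15.4%, against 55.1%), namely *Ifit3*, *Oas2*, *Ifi44*, *Ifitm1*, *Samd9l*, and *Rtp4*.

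*Oas3*, which makes the 2-5A messenger that activates RNase L, had H3K27ac at its start (chr5:120753098-120777661, minus strand) in WT (fold 6.87, rank 18.5) and in Ep300Δ/ΔTet2-/- cells (fold 4.18, rank 6.3) and none in either single mutant. The summit of this start peak lay at the same base in WT and the double-deficient list. Within 3000 bp of the start, Ep300Δ/Δ cells had a peak too, in the separate region 2066 bp after the start that WT also had. *Oas1a* had H3K27ac only in the double-deficient list (fold 4.66, rank 9.8), at a −log10 q of 3.8. *Oasl2*, an OAS-like protein, had it only in the lists without *Tet2*, at folds of 2.33 and 5.21, of which the first had a −log10 q of 0.78 and so did not reach a q of 0.05. *Oas2* had no H3K27ac and 1 weak H3K4me3 peak, in Ep300Δ/Δ (fold 5.09, rank 3.6). *Oasl1* was acetylated throughout, with ranks of 43.4, 24.2, 61.6, and 37.7, although its summit lay at −1047 to −983 bp from the start.

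*Mx1*, a GTPase that blocks viral nucleocapsids, had promoter H3K27ac in WT alone (fold 4.91, rank 7.5), the longest of the H3K27ac lists, and this call was not among the peaks kept with lists of equal length. H3K4me3 was called in all 4 lists, at folds of 7.7 in WT, 3.78 in Ep300Δ/Δ, 8.22 in Tet2-/-, and 2.0 in Ep300Δ/ΔTet2-/- cells. The Ep300Δ/Δ and double-deficient peaks were weak, with −log10 q of 4.26 and 1.48, and neither reached a limit of 5. The double-deficient peak ranked 0.0 and also fell out with lists of equal length. H3K4me1 folds were 4.85, 3.62, 8.54, and 3.7 in the same order. The 2 lists from mice with *Mx1-Cre* thus had the lower values of both methylation marks. These groups differ from the others in the transgene as well as in *Ep300*. The 2 cannot be told apart, at this gene or in any other comparison by *Ep300* here. The neighboring *Mx2* was acetylated throughout, with ranks from 10.6 to 21.3.

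*Ifit1* (chr19:34640871-34650009), whose protein binds viral RNA caps, had H3K27ac in the lists without *Tet2* only, at folds of 3.43 (rank 2.0) and 4.37 (rank 7.5). Both peaks were weak, with −log10 q of 2.5 and 4.94, and neither passed the stricter limit of 5. Its H3K4me3 fold was 9.78 in WT and 17.8, 20.2, and 17.8 in the mutants. *Ifit3b* had H3K27ac in the 2 lists with intact *Ep300*, at folds of 3.22 and 6.01, and in neither *Ep300*-deleted list. Its H3K4me3 peak was absent from WT and weak elsewhere (folds of 2.98, 6.32, and 8.37). *Ifit3* had no H3K27ac, and H3K4me3 only in the lists without *Tet2* (folds of 8.1 and 7.58). *Ifit2* was acetylated throughout, with ranks of 24.3, 14.3, 11.9, and 34.1. Of the 226 stretches of 75 bases, the read length in the methods, in each 300-base promoter, 42.0% were identical between *Ifit3* and *Ifit3b*, and 75.7% of those of *Ifit1* recurred at *Ifit1bl2*. Reads from such stretches have no unique place and fail a mapping quality filter, so the calls at these 3 genes are uncertain. None of the other 27 member promoters in the RefSeq set shared such a stretch with another gene of the set, and the 9 members without an entry were not searched.

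Between genotypes, few promoter calls were lost or gained. From WT to Ep300Δ/Δ, 3 of 30 promoter H3K27ac calls were lost (*Ifit3b*, *Mx1*, *Oas3*; 7.71% of protein-coding genes) and none of 27 gained (3.37%). From Tet2-/- to Ep300Δ/ΔTet2-/-, 1 of 29 was lost (*Ifit3b*; 10.2%) and 3 of 31 gained (*Oas1a*, *Oas3*, *Ifitm3*; 3.67%). From WT to Tet2-/-, 3 of 30 were lost (*Mx1*, *Oas3*, *Ifitm3*; 6.34%) and 2 of 29 gained (*Ifit1*, *Oasl2*; 4.16%). From Ep300Δ/Δ to Ep300Δ/ΔTet2-/-, none of 27 was lost (8.7%) and 4 of 31 gained (*Ifit1*, *Oas1a*, *Oas3*, *Oasl2*; 4.32%). The exact intervals of all 8 shares hold the background share, and comparisons that share a genotype share its libraries. The direction of these counts depends on list length. With lists of equal length, WT to Ep300Δ/Δ lost 1 of 22 calls (*Oas3*; 5.86%) and gained 6 of 27 (*Rsad2*, *Dhx58*, *Ifitm3*, *Xaf1*, *Cmpk2*, *Zbp1*; interval 8.62 to 42.3; 6.52%). Tet2-/- to Ep300Δ/ΔTet2-/- lost 1 of 25 (7.7%) and gained 7 of 31 (interval 9.59 to 41.1; 6.02%), WT to Tet2-/- lost 1 of 22 (4.51%) and gained 4 of 25 (7.58%), and Ep300Δ/Δ to Ep300Δ/ΔTet2-/- lost none of 27 (6.33%) and gained 4 of 31 (7.04%). At this setting the intervals of the first 2 gains lay above the background. With −log10 q of at least 5, so did the gain from Tet2-/- to Ep300Δ/ΔTet2-/- (4 of 26, interval 4.36 to 34.9; 3.58%). Over every annotated start, so did the gain from Ep300Δ/Δ to Ep300Δ/ΔTet2-/- (5 of 32, interval 5.28 to 32.8; 4.35%). The intervals of the losses lay above the background at no setting. In the full lists, every H3K27ac peak at the 7 promoters acetylated in 1 to 3 lists had a rank of 18.5 or less. For H3K4me3, 1 of 34 WT calls was absent from Ep300Δ/Δ (*Ifitm1*; 1.49%), and 3 of 36 calls in Ep300Δ/Δ were absent from WT (*Ifit3b*, *Oas2*, *Ifi44*; 3.4%), and 3 of 37 in Tet2-/- (*Ifit3*, *Ifit3b*, *Ifi44*; 2.2%).

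Among members acetylated in both lists of a comparison, ranks moved in both directions. From WT to Ep300Δ/Δ, 17 of 27 members ranked higher, with a median shift of 3.0, where 45.8% of protein-coding promoters ranked higher and the median shift was −1.4. From Tet2-/- to Ep300Δ/ΔTet2-/-, 13 of 28 ranked higher (median −1.8; 45.9% and −1.7 for protein-coding promoters). From WT to Tet2-/-, 16 of 27 ranked higher (median 6.1; 47.4% and −1.1). The longest downward move was that of *Usp18* from Tet2-/- to the double-deficient list, from 66.2 to 26.8.

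Among the membrane proteins, *Bst2* (tetherin, which holds budding virions at the surface; chr8:71534255-71537456, minus strand) had H3K27ac folds of 13.02 in WT, 8.75 in Ep300Δ/Δ, 27.3 in Tet2-/-, and 21.9 in Ep300Δ/ΔTet2-/- cells. The ranks of 48.5, 42.5, 88.9, and 83.7 put the lists without *Tet2* above those with it. A move as far from WT to Tet2-/- was made by 2.21% of protein-coding promoters. *Ifitm3*, which blocks viral entry, had weak H3K27ac peaks in WT, Ep300Δ/Δ, and double-deficient cells (folds of 3.63, 3.57, and 3.8) and none in Tet2-/-. *Ifitm2* was acetylated throughout (folds of 9.04, 7.32, 7.7, and 4.97), and *Ifitm1* had no H3K27ac within 1000 bp of its gene start, yet H3K4me1 in all 4 lists. Its calls depend on the start and width used, since H3K27ac was found in WT over every annotated start and in WT and Tet2-/- within 3000 bp. Both settings also gave the H3K4me3 call that was absent from Ep300Δ/Δ.

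The guanylate-binding GTPases *Gbp2* and *Gbp3*, known also as targets of interferon gamma, ranked above the members' median H3K27ac rank in every list. *Gbp3* ranked 79.8, 67.5, 72.1, and 96.4 in H3K27ac, the highest of all members in the double-deficient list. In H3K4me1, *Gbp3* ranked 17.4, 86.7, 96.7, and 62.7, and its WT call fell out with −log10 q of at least 5. *Gbp2* ranked 64.5, 75.7, 64.5, and 46.2 in H3K27ac, and its H3K4me1 ranked 91.9, 99.1, 98.5, and 99.7. The H3K4me3 ranks were 30.6, 59.0, 40.7, and 36.3 for *Gbp2* and 83.9, 52.5, 47.1, and 94.6 for *Gbp3*. The ADP-ribosyltransferase *Parp14* ranked 41.8, 26.1, 48.6, and 57.5 in H3K27ac. Of the enzymes that act on nucleotides or RNA, the exonuclease *Isg20* ranked 50.1 to 71.5, and the adjacent *Rsad2* (viperin) and *Cmpk2*, which act on pyrimidine nucleotides, ranked 0.3 to 13.4 and 0.7 to 24.6.

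No promoter peak of any mark was called in WT at *Ifit3*, *Ifi44*, and *Rtp4*. *Ifi44* (chr3:151730922-151749960, minus strand) had only H3K4me3 calls, at folds of 16.0 in Ep300Δ/Δ, 11.2 in Tet2-/-, and 18.1 in Ep300Δ/ΔTet2-/- cells. *Rtp4* is annotated over 93932 bp with 5 starts, and its calls depend on which is used. At the other starts it had H3K4me3 in all 4 lists, and H3K27ac in all but Ep300Δ/Δ. *Samd9l* had H3K4me3 alone, at folds of 6.53, 9.6, 11.1, and 5.74. H3K4me3 without H3K27ac was found at 5, 9, 8, and 6 members in WT, Ep300Δ/Δ, Tet2-/-, and Ep300Δ/ΔTet2-/- cells (15.1, 17.9, 16.2, and 19.2% of protein-coding genes).

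The members' promoters were poor in CpG. The ratio of observed to expected CpG in the 300 promoter bases had a median of 0.38 at the 20 members with a RefSeq promoter that were acetylated in all 4 lists (0.06 to 0.83), 0.2 at the 6 acetylated in some (0.06 to 0.27), and 0.18 at the 4 acetylated in none (0.06 to 0.39). Over all promoters of the RefSeq set, the medians were 0.81, 0.71, and 0.29 for the same classes. Members acetylated throughout thus had a lower median than all genes of their class, with *Stat2*, *Ifih1*, and *Dtx3l* (0.83, 0.82, and 0.77) nearest to the class median. The GAAA repeat was present in 10 of the 20, 5 of the 6, and 1 of the 4, against 3.32, 3.25, and 3.61% of all promoters of the same classes.

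**Figure D3:**
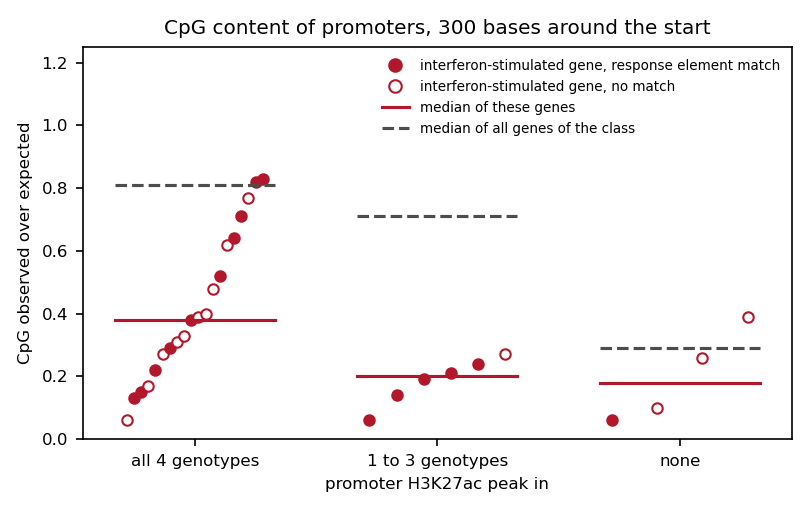
CpG observed over expected (vertical axis) in the 300 promoter bases of the 30 members in the RefSeq set, by the number of lists with promoter H3K27ac. Each circle is a gene, filled where the GAAA repeat was found; solid lines are medians of the members and dashed lines medians of all genes of that class, which lie above the members' median in every class.

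Distal acetylation near the members was sparse. Distal H3K27ac was found at 10 members in WT (25.6%; 23.2% of protein-coding genes), 9 in Ep300Δ/Δ (23.1%, interval 11.1 to 39.3; 15.6%), 5 in Tet2-/- (12.8%; 20.0%), and 4 in Ep300Δ/ΔTet2-/- cells (10.3%; 14.2%). These shares lay within counting error of the background, and the windows had a median length of 33707 bp against 37425 bp for protein-coding genes. With lists of equal length the counts were 3, 8, 3, and 4, so the fall from WT to the double-deficient list depended on list length. The share of protein-coding genes at that setting was not computed, so these counts have no background beside them. Distal H3K4me1, in contrast, was found at 34, 33, 34, and 30 members (87.2, 84.6, 87.2, and 76.9%), against 58.0, 55.9, 57.6, and 57.5% of protein-coding genes. Distal H3K4me3 was found at 15, 8, 9, and 11 members (24.5, 22.3, 24.9, and 23.2% of protein-coding genes).

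Merged over the 4 genotypes, the acetylated distal sites formed 17 regions, of which 9 lay between genes and 3 within the member they were nearest to. Acetylation was found in 1 list at 6 of them, in 2 lists at 7, in 3 lists at 2, and in all 4 lists at 2 (35.3, 41.2, 11.8, and 11.8%, against 55.3, 18.8, 11.3, and 14.5% of 18030 distal regions). H3K4me1 was more constant, and 14 of the 17 carried it in all 4 lists (82.4%, against 68.3%). WT had H3K27ac at 13 of the regions (76.5%, against 72.9% of all distal regions), Ep300Δ/Δ at 10 (58.8%; 35.0%), Tet2-/- at 7 (41.2%; 49.3%), and Ep300Δ/ΔTet2-/- at 4 (23.5%; 27.9%). Acetylated distal regions were thus fewer in the mutants at large, and each interval of the members held its background share. The regions that carried H3K4me1 without acetylation numbered 3, 5, 8, and 11 in the same order (18.1, 47.1, 39.9, and 55.8% of all distal regions).

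**Figure D4:**
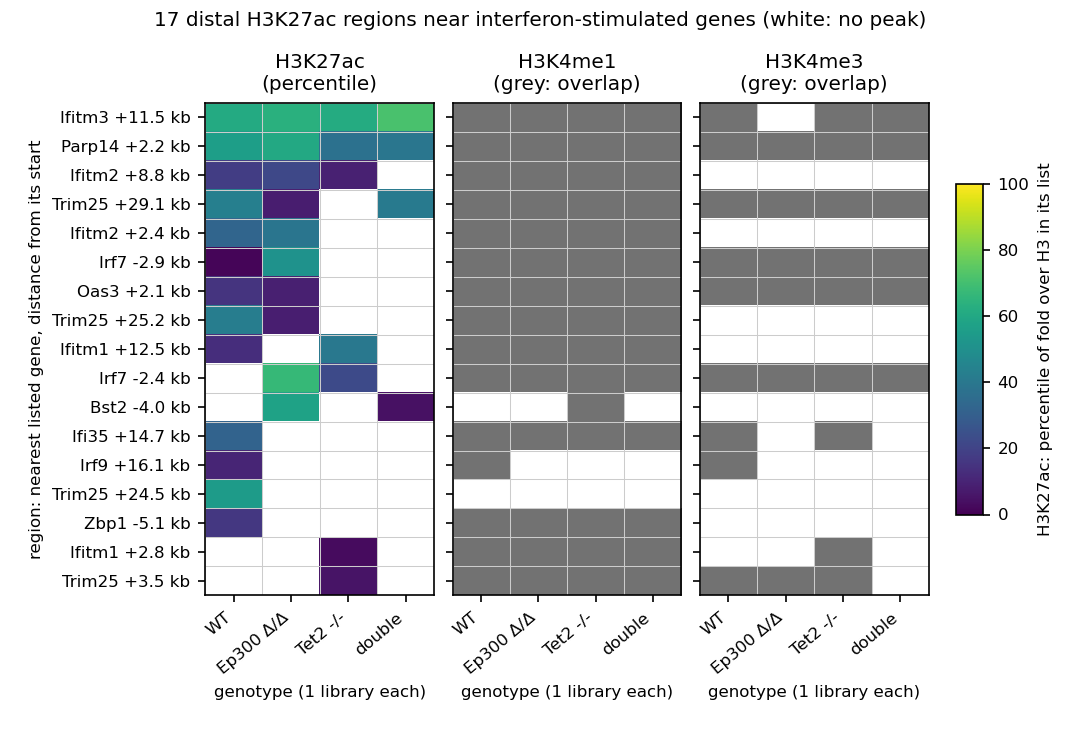
The 17 distal H3K27ac regions (rows, named by the nearest member and the distance of the region's middle from its start, kb) in the 4 genotypes (columns). Color gives the percentile of the H3K27ac fold in its list and grey an overlapping H3K4me1 or H3K4me3 peak: 14 rows are grey throughout for H3K4me1, while the H3K27ac panel is filled at 13, 10, 7, and 4 rows from WT to the double-deficient list.

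Of the 2 regions acetylated in all 4 lists, 1 lay 11548 bp beyond the start of *Ifitm3*, between genes (chr7:140998726-140999718). It lay at the edge of the window of *Ifitm3*: only its WT peak reached into the window, and the peaks of the other lists, merged with it, lay outside. Its H3K27ac folds were 8.2 in WT, 7.57 in Ep300Δ/Δ, 8.09 in Tet2-/-, and 10.5 in Ep300Δ/ΔTet2-/- cells, at percentiles of 61.3, 63.6, 61.5, and 71.3 of all peaks of the list. The other lay inside *Parp14*, 2177 bp after its start (chr16:35869126-35869608), at folds of 7.41, 7.06, 5.43, and 5.94. Both had H3K4me1 in every list. The GAAA repeat was found within the 300 bases around the summit of both and of the *Irf7* region described next. That is 3 of 17 regions (17.6%, interval 3.8 to 43.4), against 4.17% of 18030 distal regions. The interval holds the background share, and the match near *Ifitm3* lies outside the window of that gene. The sequences around the summits near *Ifitm3* and *Irf7* are shown, on the plus strand, with the match in capitals.
Ifitm3 distal region (chr7:140998812-140999111, plus strand): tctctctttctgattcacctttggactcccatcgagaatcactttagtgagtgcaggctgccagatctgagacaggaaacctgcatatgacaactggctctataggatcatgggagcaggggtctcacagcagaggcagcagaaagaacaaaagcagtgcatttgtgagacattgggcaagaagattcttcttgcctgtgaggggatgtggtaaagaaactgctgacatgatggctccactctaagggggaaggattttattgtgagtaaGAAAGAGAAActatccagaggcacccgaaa
Irf7 distal region (chr7:141268673-141268972, plus strand): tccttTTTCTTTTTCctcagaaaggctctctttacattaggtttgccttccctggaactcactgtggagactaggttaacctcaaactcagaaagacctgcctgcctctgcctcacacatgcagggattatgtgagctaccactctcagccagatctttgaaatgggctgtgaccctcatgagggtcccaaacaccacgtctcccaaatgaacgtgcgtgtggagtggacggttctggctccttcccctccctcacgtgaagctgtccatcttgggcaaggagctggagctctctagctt

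Upstream of *Irf7*, 2 neighboring regions were acetylated in different genotypes. The nearer, centered at −2396 bp from the start, had H3K27ac in Ep300Δ/Δ (fold 8.14) and Tet2-/- (fold 4.41). The farther, centered at −2926 bp inside *Cdhr5*, had it in WT (fold 2.78) and Ep300Δ/Δ (fold 6.03). Neither was acetylated in the double-deficient list, and both carried H3K4me1 and H3K4me3 in all 4 lists.

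*Trim25* had the most distal acetylation of any member, with 3, 2, 2, and 1 peaks in WT, Ep300Δ/Δ, Tet2-/-, and Ep300Δ/ΔTet2-/- cells. A region centered 29067 bp after its start and beyond the end of the gene had H3K27ac in all lists but Tet2-/- (folds of 6.04, 3.21, and 6.07). A region at 25175 bp had it in WT and Ep300Δ/Δ (folds of 5.97 and 3.24), and 1 at 3464 bp, inside the gene, in Tet2-/- alone (fold 3.25). At 24543 bp a WT peak (fold 7.3) had neither methylation mark in any list.

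The *Ifitm* cluster held 5 of the regions. The pair nearest to *Ifitm2*, 8791 and 2443 bp beyond its start, had H3K27ac in WT (folds of 4.22 and 5.24) and Ep300Δ/Δ (4.02 and 5.02). The farther was also acetylated in Tet2-/- (3.53), and neither in the double-deficient list. Of the pair nearest to *Ifitm1*, the region 12509 bp beyond the start was acetylated in WT and Tet2-/- (folds of 3.94 and 5.63) and the region 2775 bp beyond it in Tet2-/- alone (fold 3.0). H3K4me1 covered all 5 in every list.

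Single regions stood at other members. One inside *Oas3*, 2066 bp after the start, was acetylated in WT and Ep300Δ/Δ (folds of 4.15 and 3.25). Regions near *Ifi35*, *Irf9*, and *Zbp1* were acetylated in WT alone (folds of 5.16, 3.76, and 4.18), all 3 in the lower part of the list. A region centered at −3963 bp from the start of *Bst2* was acetylated in Ep300Δ/Δ (fold 6.73) and the double-deficient list (fold 3.28) and in neither list with intact *Ep300*, and its H3K4me1 was found in Tet2-/- only.

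In pairs of lists, 5 of 13 distal H3K27ac regions near members were lost from WT to Ep300Δ/Δ (38.5%, interval 13.9 to 68.4; 62.0% of all distal regions) and 2 of 10 gained (21.9%). From Tet2-/- to Ep300Δ/ΔTet2-/-, 6 of 7 were lost (interval 42.1 to 99.6; 61.2%) and 3 of 4 gained (30.5%). From WT to Tet2-/-, 9 of 13 were lost (55.5%) and 4 of 8 gained (34.4%). From Ep300Δ/Δ to Ep300Δ/ΔTet2-/-, 6 of 9 were lost (51.9%) and none of 3 gained (37.0%). Every interval holds its background share, so the losses were not distinguishable from those of distal regions at large. Of the 17 regions, 8 were acetylated only in lists with *Tet2* (42.3% of all distal regions) and 2 only in lists without it (19.6%), while 7 were acetylated only in lists with intact *Ep300* (54.8%) and 1 only after its deletion (10.1%).

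Further genes of the pathway were read by the same rule. Promoter H3K27ac was found at 18, 16, 15, and 16 of 21 receptor and signaling genes in WT, Ep300Δ/Δ, Tet2-/-, and Ep300Δ/ΔTet2-/- cells, where 42.1, 40.2, 41.1, and 38.3% of protein-coding genes had it. From WT, 2 calls were lost to Ep300Δ/Δ (7.71% of protein-coding genes) and 3 to Tet2-/- (6.34%), with none gained. None was lost and 1 gained from Tet2-/- to the double-deficient list, and none was lost or gained from Ep300Δ/Δ to it. H3K4me3 was present at 20 of the 21 in every list (56.7 to 57.8% of protein-coding genes). Of 12 genes of nucleic acid sensing, 11, 10, 9, and 10 had promoter H3K27ac, against the same shares. Of 35 further interferon-stimulated genes, 23, 22, 22, and 24 had it, and 28, 29, 30, and 30 had H3K4me3.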

How the data were processed

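Histone ChIP-Seq gave 1 narrow peak list for each of 3 marks (H3K27ac, H3K4me3, H3K4me1) in each of 4 genotypes, grouped by the sample labels. The other 8 of the 20 samples, of H3 and H3K27me3, were not used here. The submitters' processing notes name cutadapt 1.15, BWA 0.7.13, Picard, MACS2 2.1.1.20160309, and the mm10 build. Per the methods, duplicates, reads of low mapping quality, and blacklisted regions were removed, and narrow peaks were called against H3 and kept where pseudo-replicates, random parts of 1 library, overlapped. Those are not biological replicates. A *Drosophila* chromatin spike-in was added, and its use in the deposited lists is not given in the sources used here. The labels give single-end and the methods paired-end reads. The deposited lists give a position, a summit, a score (not used), a fold enrichment over H3, and −log10 values of P (not used) and q. The authors' stated q threshold was 0.05, and 0.137 to 7.17% of peaks per list lie above it. The deposited fold describes 1 list, so folds of different lists are set side by side as values only, and the rank within a list is the scale used to compare them.

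Overlap of at least 1 bp with GENCODE M21 windows on GRCm38 (mm10) was computed in Python 3.11.15 with pandas 2.3.3. The code was tested on simulated intervals, also against bedtools 2.31.1, and on planted motifs. No peak lay beyond a GRCm38 chromosome end. For paired lists, peaks were merged and a region was lost or gained where the other list had no overlap. Over the 4 lists, a merged region that reached a start was left out, and one that reached into a window was kept with all its peaks. Intervals are Clopper-Pearson at 95%. With 1 library per group there is no test and no P value. Named genes were all members, with values in every list for those whose promoter H3K27ac call varied, for *Mx1*, *Irf7*, *Irf9*, and *Stat2*, for the 5 with the most distal H3K27ac peaks, and for those without any WT promoter peak; *Ifih1*, *Bst2*, *Eif2ak2*, *Gbp3*, *Usp18*, and others were named after their values were seen. The members and lists were chosen with earlier results of these data known. Alternatives tried were a −log10 q of at least 5, lists of equal length, stricter overlap, other promoter and window widths, every transcript start, and other motif searches. One marker gene and 1 motif search are not reported here.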

Additional observations from a re-analysis of the deposited data

Results flagged for a closer look

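The *Oas3* promoter H3K27ac call moved in opposite directions on the 2 backgrounds. It was lost from WT (fold over H3 of 6.87) to Ep300Δ/Δ and gained from Tet2-/- to Ep300Δ/ΔTet2-/- (fold of 4.18), and likewise lost from WT to Tet2-/- and gained from Ep300Δ/Δ to the double-deficient list. With 1 library per genotype the difference was not tested, and both peaks ranked low in their lists (18.5 and 6.3). With the promoter widened to 3000 bp on either side, Ep300Δ/Δ had a call as well, from the separate region 2066 bp after the start that WT also had. The loss from WT to Ep300Δ/Δ and the gain from Ep300Δ/Δ to the double-deficient list were then no longer found. The peak at the start itself stayed absent from Ep300Δ/Δ.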

How the results depend on the processing

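No paired analysis was possible because each genotype and mark has 1 library and no result comes from a test. All 60 alternative promoter counts stayed within 1.5 times of the reported ones. With lists of equal length, however, the members with promoter H3K27ac were 22 in WT and 31 in the double-deficient list. Of the 21938 protein-coding genes, 8288 and 8410 had a call in these 2 lists. The named calls were less stable. Of the 7 promoters acetylated in some lists, both *Ifit1* peaks, the Tet2-/- peak of *Oasl2*, the WT peak of *Ifit3b*, the *Oas1a* peak, and all *Ifitm3* peaks fell out with −log10 q of at least 5, and the *Mx1* peak with lists of equal length. Of the 26 promoters acetylated in every list, 21 remained with −log10 q of at least 5 (without *Isg15*, *Rsad2*, *Dhx58*, *Xaf1*, and *Cmpk2*), 21 with lists of equal length (without *Rsad2*, *Dhx58*, *Xaf1*, *Cmpk2*, and *Zbp1*), and 24 by summit (without *Oasl1* and *Dhx58*). Of 60 alternative distal counts, 43 stayed within that range, and shares of protein-coding genes were not computed for them. Distal H3K27ac was found at 5 members in WT, 3 in Tet2-/-, and 2 in Ep300Δ/ΔTet2-/- cells with −log10 q of at least 5, at 3 in WT and 3 in Tet2-/- with lists of equal length, and at 9 in Tet2-/- and 7 in double-deficient cells when the summit had to lie in the window outside starts. With only the own promoter left out, it was found at 19, 15, 15, and 13 members from WT to the double-deficient list, and distal H3K4me3 at 24, 23, 23, and 23. Distal H3K4me3 placed by summit was found at 13 members in Ep300Δ/Δ and 14 in Tet2-/-.

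Of 40 alternative counts of lost and gained distal H3K27ac regions, 22 stayed within range. The range applies to counts and not to shares. With −log10 q of at least 5, WT to Ep300Δ/Δ lost 6 of 8 regions, which is within range of the reported 5 of 13 although the share is higher. With −log10 q of at least 5, Tet2-/- to double-deficient lost 2 and gained 1, WT to Tet2-/- gained 2, and Ep300Δ/Δ to double-deficient lost 3 and gained 1. With lists of equal length, WT to Ep300Δ/Δ lost 1 and gained 5, Tet2-/- to double-deficient lost 2, and WT to Tet2-/- lost 2 and gained 2. With 3000 bp around every start left out, WT to Ep300Δ/Δ lost 3 and gained 0, Tet2-/- to double-deficient lost 3 and gained 1, WT to Tet2-/- lost 4 and gained 1, and Ep300Δ/Δ to double-deficient lost 1. With windows of 5000 bp, WT to Ep300Δ/Δ lost 3. Fewer peaks or regions enter under the stricter settings. The GAAA repeat followed by CT was found in 9 members, and a wider search of 500 bp on either side found the repeat in 19 (63.3%, against 10.6% of all promoters). Read depth is unknown, so a missing call may be a call just under the threshold of a shallower library, and counts of under 20 regions leave wide intervals.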
